A study of Mus musculus with 8 samples.

Results

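The genes described here encode 10 enzymes that bring long-chain fatty acids into mitochondria, oxidise them there, or interconvert ketone bodies: Cpt1a, Cpt1c, Cpt2, Acadm, Acadl, Acadvl, Hadha, Hadhb, Acaa2 and Bdh1. They were taken by gene name from the count table, which held all 10 of them among its 34299 genes. RNA of the whole brain of mice was sequenced in 8 libraries: day 15 fetal brain of wild-type animals (WT, 3 libraries), day 15 fetal brain of Cav1 knockouts (KO, 3 libraries) and week 70 brain of Cav1 knockouts (2 libraries). The knockout removes caveolin 1, a structural protein of caveolae, which are small pits of the plasma membrane. The strain, the sex, the knockout allele and any pooling of animals are not given in the sources used here. WT brain at week 70 was not analysed here, so age could be compared only within the knockout. The labels call the fetal replicates biological and do not say how the week 70 replicates were taken.

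Mitochondrial beta-oxidation shortens fatty acids step by step into acetyl-CoA. Long-chain acyl groups first pass to carnitine through carnitine palmitoyltransferase 1 (CPT1) on the outer membrane, cross the inner membrane, and return to CoA through CPT2. Acyl-CoA dehydrogenases with preferences for chain length start each round, and the trifunctional protein and a thiolase finish it. Ketone bodies, made mainly in liver, are a fuel that brain takes up, above all around birth and in fasting. In brain, fatty acid oxidation is known mainly from astrocytes and neural progenitors, while most neurons use it little.

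Total counts ranged from 14110031 to 20833397 per library, and each KO day 15 library was shallower than each WT library. Together the 10 genes accounted for 0.0388 ± 0.00137% of the WT fetal counts (SD, n = 3), for 0.0302 ± 0.00112% of the KO fetal counts (SD, n = 3) and for 0.0457 ± 0.00221% of those from week 70 (SD, n = 2). Cav1 held 367, 218 and 329 counts in the WT libraries and at most 5 in any KO library, so no library went against its genotype label. No batch or date is recorded in the labels, so batch and group cannot be told apart. Between KO and WT at day 15, edgeR called 62.6% of all tested genes (higher in KO 30.1%, lower 32.5%), and between the ages it called 81.9% (higher at week 70 37.6%, lower 44.4%). With upper-quartile in place of TMM scaling, the log2 fold changes of all genes moved by a median of 0.17 at day 15 and -0.25 by age, and the share of day 15 calls that were higher in KO went from 48.1% to 60.8%. The fold changes of all genes also followed transcript length and GC content, so a fit with an offset for both was run beside each comparison. Levels are CPM, counts divided by the scaled library total, on 1 scale for all 8 libraries, and calls are an adjusted p under 0.05.

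Markers of other cells moved with the groups as well. In KO at day 15, summed levels were lower for 6 radial glia and progenitor genes (365 to 395 against 970 to 1080 CPM in WT), 6 astrocyte genes (177 to 183 against 376 to 429) and 6 endothelial genes (50.8 to 65.9 against 171 to 235). In edgeR all 6 progenitor and all 6 endothelial genes were called lower, or 4 and 6 with the length and GC offset. Of the astrocyte genes 4 were called lower and Aqp4 higher (0.68 on the log2 scale, edgeR adjusted p 0.0145), and Gfap, at 0.52, was not called. With the length and GC offset 4 were again lower, while Gfap (0.94) was called higher and Aqp4 (0.47) was not called. Microglia genes stood at 22.0 to 24.8 CPM in KO against 36.5 to 64.2 in WT. Of these 6, 3 were called lower and 1 higher, or 2 lower and 0 higher with the offset. Erythroid genes were higher, at 3570 to 4380 against 954 to 1240 CPM, and all 6 were called. WT replicate 1 stood apart in fibroblast and meninges genes, with 4440 CPM against 306 and 517 in the other WT libraries and 67.8 to 141 in KO. The same library was highest in skeletal muscle genes, with 49.4 CPM against 6.74 and 6.64 in the other WT libraries. Each KO fetal library was lower than WT replicate 1 in these muscle genes, as were the week 70 libraries, at 28.1 and 19.7 CPM. At week 70, oligodendrocyte genes stood at 13300 and 13400 CPM, against 77.8 to 83.0 in KO fetal brain, and astrocyte genes at 7660 and 7110 CPM. Genes of neurons, the defining cells of the tissue, were present in every library, at 3670 to 4090 CPM in WT, 2930 to 2990 in KO fetal brain, and 8210 and 7830 at week 70. At day 15, 4 of the 6 were called lower in KO and 2 higher, or 2 lower and 0 higher with the length and GC offset. By age 4 of the 6 were called higher at week 70, and Tubb3 (-0.67 on the log2 scale) and Stmn2 (-1.26) lower. Liver genes, of which 5 of 6 were in the table, summed to 75.5 CPM in week 70 replicate 1 and 2260 in replicate 2, against 297 to 386 in the fetal libraries. That sum was mostly Ttr, a gene that choroid plexus also expresses, with 910 and 32809 counts in the week 70 replicates, while Alb held 163 and 2, Apoa2 47 and 3 and Apoa1 22 and 9. Xist, the X-inactivation transcript, held 7969 counts in week 70 replicate 1 and 4 in replicate 2, against at least 54531 in each fetal library, so the week 70 replicates differ from each other and from the fetal libraries in this sex-linked transcript, as 2 libraries of the same RNA would not. In these bulk libraries fewer cells of a type and less RNA per cell cannot be told apart. The part of these shifts in the results below was not tested.

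Hadhb has a near-identical copy that may share reads with it, and the sequences are shown here for that reason. Hadhb-ps, a processed pseudogene on chromosome 2 at 108948806 to 108950233 (GRCm38, + strand), matches the whole coding sequence of Hadhb-201 without a gap. The 1428 bases differ at 3 positions, an identity of 99.79%. They are only part of Hadhb, whose exons together cover 6595 bases. Counted from 1 at the start codon, the differences are G201A, A393G and G743A, with the Hadhb base first. Of the 1329 windows of 100 bases along the coding sequence, 1029 (77.4%) hold none of them, and a read inside such a window is the same for both genes. The stretches around the first and the last difference follow, 5′ to 3′, with the differing base in capitals (GENCODE M 21, GRCm38):
Hadhb, coding bases 171 to 231: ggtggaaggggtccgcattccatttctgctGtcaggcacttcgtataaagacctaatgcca
Hadhb-ps, bases 171 to 231: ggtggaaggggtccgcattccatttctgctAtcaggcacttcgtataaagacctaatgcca
Hadhb, coding bases 713 to 773: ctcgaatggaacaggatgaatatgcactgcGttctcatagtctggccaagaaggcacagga
Hadhb-ps, bases 713 to 773: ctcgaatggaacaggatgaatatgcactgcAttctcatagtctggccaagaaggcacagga

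Hadha and Hadhb, the genes of the trifunctional protein's alpha and beta subunits, lie head to head on chromosome 5, and their annotated starts at 30155162 and 30155248 leave 85 bases between them. Cpt1a and Cpt1c, in contrast, are paralogs on chromosomes 19 and 7. The stretch between Hadha and Hadhb, and the 150 bases before the first exon of Cpt1a-201 and Cpt1c-201, are printed because the members of each pair are compared below. The Cpt1a stretch lies inside the first intron of another transcript, Cpt1a-206, that starts further upstream. Capitals mark 3 short motifs on either strand: the GC box GGGCGG, the CCAAT box and the nuclear receptor motif AGGTCA (RefSeq promoter windows, GRCm38.p6).
Hadha to Hadhb, chr5:30155163-30155247, + strand: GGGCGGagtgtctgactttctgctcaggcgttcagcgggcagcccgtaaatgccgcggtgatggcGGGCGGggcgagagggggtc
Cpt1a, chr19:3323135-3323284, + strand: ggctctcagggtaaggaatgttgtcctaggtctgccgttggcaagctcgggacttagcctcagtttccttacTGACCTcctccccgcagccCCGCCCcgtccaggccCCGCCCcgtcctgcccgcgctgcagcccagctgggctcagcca
Cpt1c, chr7:44974852-44975001, - strand: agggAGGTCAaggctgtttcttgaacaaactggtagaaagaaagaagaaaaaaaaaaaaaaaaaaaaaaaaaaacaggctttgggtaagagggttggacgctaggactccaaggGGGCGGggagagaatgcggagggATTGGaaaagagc
The Hadha to Hadhb stretch had a GC content of 69.4% and the Cpt1a stretch one of 67.3%, against 43.3% for Cpt1c. In windows from 250 bases before to 50 after each RefSeq start, matched for 9 of the 10 genes, GGGCGG stood in those of 7 genes and in 35.7% of all 32851 windows. AGGTCA stood in those of 4 genes (Acadm, Acadvl, Cpt1a and Cpt1c) and in 16.3% of all windows, and CCAAT in those of Cpt1a and Cpt1c and in 37.4%. The longer motif of the estrogen-related receptors (TCAAGGTCA), the direct repeat bound by PPAR with RXR and the NRF1 palindrome were searched on both strands (the first 2 hold AGGTCA within them). They were in none of the 9 genes' windows, and in 0.423%, 0.0396% and 0.971% of all windows. The windows of Hadha and Hadhb overlap each other. GC content ranged from 47.3 to 70.3% in the windows of the 9 genes, against a median of 52.7% in all windows. A match describes letters only.

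At day 15, 9 of the 10 genes were called between KO and WT, 8 of them lower in KO and 1, Hadhb, higher, beside the 62.6% of all tested genes that were called. The median log2 fold change of the 10 was -0.43, against 0.03 for all tested genes. In the fit with TMM scaling the falls were largest for Cpt1a (3.11-fold) and Cpt2 (2.31-fold), both of the carnitine shuttle, and next for Bdh1 and Acadl. With the length and GC offset Acadl (-1.22 on the log2 scale) stood beside Cpt1a (-1.20) and ahead of Cpt2 (-1.02). CPM did not overlap between the genotypes for 9 of the 10, and for 68.3% of all tested genes. With the length and GC offset 6 of the 10 were called, 5 lower (Cpt1a, Cpt2, Acadl, Acaa2 and Bdh1) and Cpt1c higher, where 51.1% of all genes were called, 25.1% lower. Cpt1a, Cpt2, Acadl and Bdh1 were called lower in all 17 alternatives, the replicates left out included. Of these alternatives, 1, adding pseudogene copies, leaves the counts of these genes unchanged and so is no test of them.

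At week 70, 9 of the 10 were called higher than in KO at day 15 and none lower, beside 37.6% of all tested genes that were called higher. Their median log2 fold change was 1.08, against -0.19 for all tested genes. Acadl rose most among those without a near-identical copy, by 5.83-fold, followed by Cpt1a and Cpt2. Only Bdh1, the ketone body enzyme, was not called. The ages were apart in CPM, without overlap, for all 10 genes and for 87.9% of those tested. With the length and GC offset 7 were called higher, Bdh1 was called lower, and Cpt1c and Acadvl were not called, where 78.7% of all genes were called (39.6% higher and 39.2% lower). The mean CPM of 8 of the 10 genes ranked week 70, then WT day 15, then KO day 15, as did that of 24.2% of all genes tested in the 3 comparisons. Among the 8, WT and KO fetal libraries overlapped for Acadm, and their order was reversed for Cpt1c with the offset. Hadhb (lowest in WT) and Bdh1 (highest in WT) were the exceptions.

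**Figure D1:**
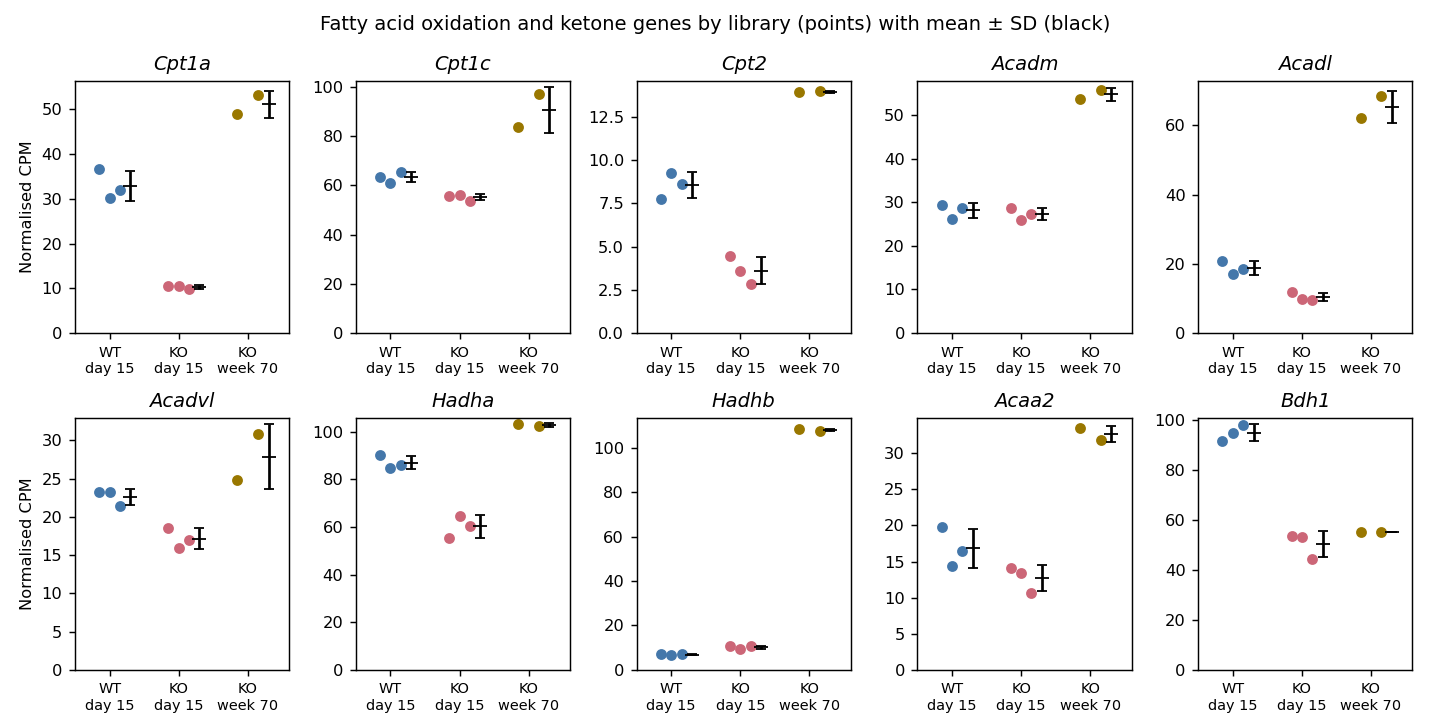
Normalised CPM of each of the 10 genes (vertical axis, from 0) in 3 WT day 15, 3 KO day 15 and 2 KO week 70 libraries; points are libraries and black marks are the mean ± SD of a group. The KO day 15 points lie below the WT points in 8 panels, overlap them for Acadm and lie above them for Hadhb, and the week 70 points are highest in all panels but Bdh1.

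The carnitine shuttle was examined first. Cpt1a (ENSMUSG00000024900, chromosome 19, 3322334 to 3385733), the CPT1 form of liver and most tissues and the main control point of long-chain oxidation, stood at 36.7, 30.2 and 31.9 CPM in WT, 10.6, 10.6 and 9.75 in KO fetal brain, and 49.0 and 53.3 at week 70. The 3 groups did not overlap, and the KO fetal libraries were the lowest. Its log2 fold change was -1.64 between the genotypes (SE 0.0984, edgeR adjusted p 2.33e-07) and 2.21 between the ages (SE 0.11, edgeR adjusted p 1.75e-08). With the length and GC offset the values were -1.20 and 1.76, both called.

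Cpt1c (ENSMUSG00000007783, chromosome 7, 44959372 to 44974851) is the neuronal paralog, which sits in the endoplasmic reticulum and has little catalytic activity. It stood at 63.6, 61.1 and 65.5 CPM in WT, 55.7, 56.1 and 53.7 in KO fetal brain, and 83.8 and 97.3 at week 70. The genotypes did not overlap but differed little, with a log2 fold change of -0.16 (SE 0.056, edgeR adjusted p 0.028). That call was lost in 6 of the 17 alternatives and its direction was reversed in 3, to 0.01 with upper-quartile scaling and to 0.37 (edgeR adjusted p 0.00025) with the length and GC offset, so it has no stable direction. Between the ages the log2 fold change was 0.62 (edgeR adjusted p 0.000109), and -0.08 with the offset.

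The ratio of the CPT1 paralogs needs no scaling between libraries. Cpt1c counts divided by Cpt1a counts gave 1.73, 2.02 and 2.05 in WT, 5.28, 5.31 and 5.51 in KO fetal brain, and 1.71 and 1.83 at week 70. The KO fetal libraries thus stood apart, with no overlap with either other group, while WT fetal and KO week 70 libraries overlapped. Per exon base, the WT libraries held 2.64 ± 0.242 times as much Cpt1c as Cpt1a (SD, n = 3). The KO fetal libraries held 7.31 ± 0.175 times as much (SD, n = 3), and the week 70 libraries 2.41 ± 0.112 times (SD, n = 2). Per base of the longest transcript the means were 2.56, 7.1 and 2.34. These ratios do not adjust for the trends of fold changes with length and GC content. GC content was 51.3% for Cpt1a and 55.8% for Cpt1c.

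Cpt2 (ENSMUSG00000028607, chromosome 4, 107903981 to 107923610), which hands the acyl group back to CoA inside mitochondria, was the least abundant of the shuttle genes. Its levels were 7.77, 9.24 and 8.65 CPM in WT, 4.43, 3.56 and 2.84 in KO fetal brain, and they averaged 13.96 ± 0.0599 at week 70 (SD, n = 2). No groups overlapped, although the KO fetal libraries spread more widely for their level than for any of the other 9 genes (49 to 73 counts). The log2 fold changes were -1.21 by genotype (SE 0.182, edgeR adjusted p 0.000196) and 1.85 by age (SE 0.212, edgeR adjusted p 1.4e-05), or -1.02 and 1.58 with the offset, both called.

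**Figure D2:**
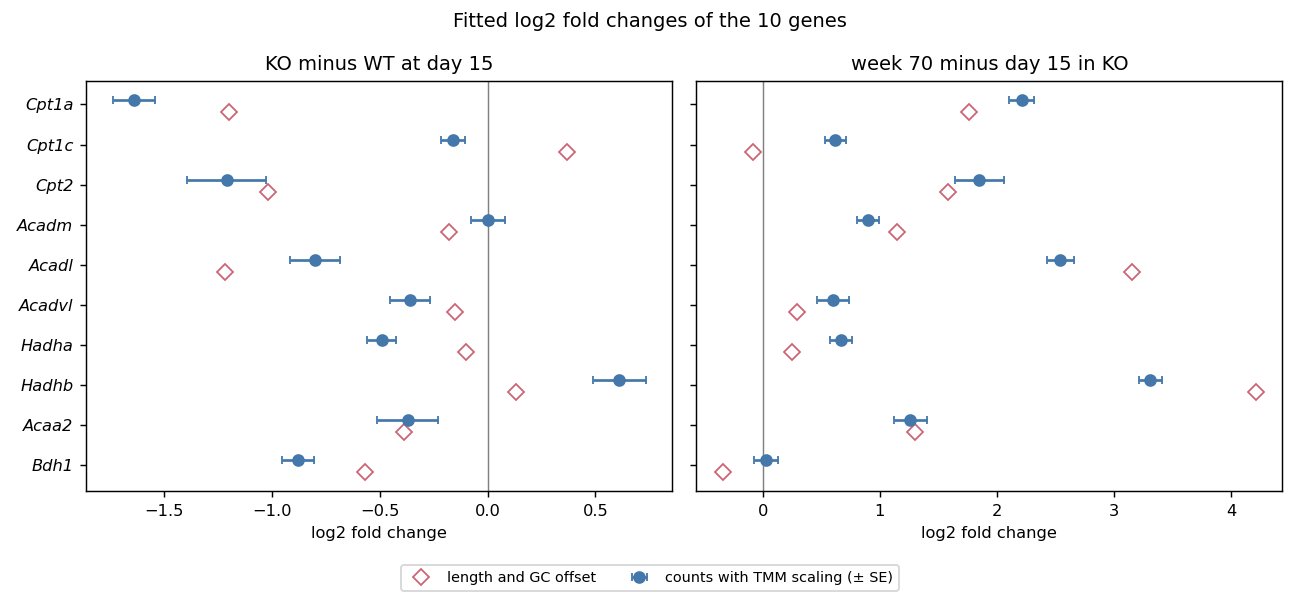
Fitted log2 fold change (horizontal axis) of the 10 genes between KO and WT at day 15 (left) and between week 70 and day 15 in KO (right); filled points are the edgeR fit with TMM scaling and bars are ± 1 SE, and open diamonds are the fit with the length and GC offset. At day 15 Cpt1a, Cpt2, Acadl and Bdh1 stay well below 0 in both fits, while Cpt1c changes side and Hadha and Hadhb move toward 0.

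The acyl-CoA dehydrogenases, which take the first step of each round, did not move as a group at day 15. Acadl (ENSMUSG00000026003, chromosome 1, 66830839 to 66863277), the long-chain enzyme, stood at 20.8, 16.9 and 18.4 CPM in WT, 11.8, 9.96 and 9.63 in KO fetal brain, and 62.1 and 68.4 at week 70. Its groups did not overlap, and its log2 fold change of -0.80 by genotype (SE 0.117, edgeR adjusted p 0.000155) was -1.22 with the length and GC offset. By age the change was 2.54 (SE 0.116, edgeR adjusted p 9.24e-09), and 3.15 with the offset.

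Acadm (ENSMUSG00000062908, chromosome 3, 153922357 to 153944632), the medium-chain enzyme, was the 1 gene of the 10 not called at day 15. It stood at 29.4, 26.3 and 28.7 CPM in WT and 28.7, 25.9 and 27.4 in KO day 15, so the genotypes overlapped. The difference was -0.003 on the log2 scale (SE 0.0787, edgeR adjusted p 0.978), and it ranged from -0.18 to 0.17 over the 17 alternatives without a call. At week 70 it was at 53.8 and 55.9 CPM, a log2 fold change of 0.90 (edgeR adjusted p 6.34e-06). The ratio of Acadl to Acadm counts was 0.641 to 0.707 in WT, 0.352 to 0.410 in KO fetal brain, and 1.15 and 1.22 at week 70, without overlap. A processed pseudogene of Acadm, Gm5131, held at most 3 counts in any library.

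Acadvl (ENSMUSG00000018574, chromosome 11, 70010183 to 70015411), the very-long-chain enzyme of the inner membrane, stood at 23.3, 23.2 and 21.4 CPM in WT, 18.6, 15.9 and 17.0 in KO fetal brain, and 24.9 and 30.9 at week 70. The log2 fold changes were -0.36 by genotype (edgeR adjusted p 0.00592) and 0.60 by age (edgeR adjusted p 0.00187). Neither call was made with the length and GC offset (-0.15 and 0.29). Its exons share 1151 bases with those of Dvl2 on the opposite strand, and Dvl2 held 1058 to 1183 counts in WT, 552 to 671 in KO day 15 and 267 to 300 at week 70. The use of strand in counting is not given in the sources used here, so reads in that overlap may belong to either gene.

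The trifunctional protein carries out the later steps of each round for long chains, with alpha and beta subunits in equal number in the complex. Hadha (ENSMUSG00000025745, chromosome 5, 30118304 to 30155162), the alpha subunit, stood at 90.3, 85.03 and 85.9 CPM in WT, 55.4, 64.7 and 60.6 in KO fetal brain, and 103 and 102 at week 70. The groups did not overlap, with log2 fold changes of -0.49 by genotype (SE 0.0672, edgeR adjusted p 9.56e-05) and 0.67 by age (SE 0.0918, edgeR adjusted p 5.64e-05). With the length and GC offset the first was -0.10 and not called, and the second 0.25 and called.

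Hadhb (ENSMUSG00000059447, chromosome 5, 30155248 to 30184593), the beta subunit, went the other way at day 15 from its neighbour across the 85 bases printed above. It held 149, 132 and 139 counts in WT, 173, 168 and 183 in KO fetal brain, and 1643 and 1561 at week 70. On the CPM scale these were 6.97, 6.59 and 6.99, then 10.5, 9.35 and 10.6, then 108 and 108. The log2 fold change was 0.61 by genotype (SE 0.123, edgeR adjusted p 0.00153) and 3.31 by age (SE 0.0969, edgeR adjusted p 4.36e-10). With the offset the first was 0.13 and not called, and the second 4.21.

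The near-identical pseudogene held more counts than Hadhb in all 6 fetal libraries and fewer in both week 70 libraries. Hadhb-ps had 580, 500 and 503 counts in WT, 470, 474 and 473 in KO fetal brain, and 321 and 347 at week 70. Of the counts of Hadhb and its copies together, Hadhb took 20.4 to 21.7% in WT, 26.1 to 27.9% in KO fetal brain, and 83.3 and 81.3% at week 70. All processed pseudogenes together moved with the groups too, at 3.55 to 3.69% of counts in WT, 6.15 to 6.49% in KO day 15 and 0.306% in both week 70 libraries. How reads that match several genes were handled is not given in the sources used here, and their part in the Hadhb values was not tested.

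Adding the copies to Hadhb, an alternative chosen after seeing the data, gave 729, 632 and 642 counts in WT, 643, 643 and 657 in KO fetal brain, and 1973 and 1920 at week 70. The log2 fold change was then 0.24 by genotype (SE 0.0687, edgeR adjusted p 0.0101) and 1.70 by age (SE 0.0829, edgeR adjusted p 1.53e-08). The age difference of Hadhb was thus 3.26-fold with its copies, below those of Acadl, Cpt1a and Cpt2, and 9.93-fold, above them, without. Hadha counts divided by Hadhb counts were 12.3 to 13.0 in WT, 5.28 to 6.92 in KO fetal brain, and 0.954 and 0.951 at week 70. With the copies added, the ratio was 2.65 to 2.69 in WT, 1.42 to 1.81 in KO fetal brain, and 0.794 and 0.773 at week 70, and the groups still did not overlap. These ratios take no account of length and GC content, which was 51.3% for Hadha and 39.1% for Hadhb. With the length and GC offset neither gene, without copies, was called at day 15 (-0.10 and 0.13).

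**Figure D3:**
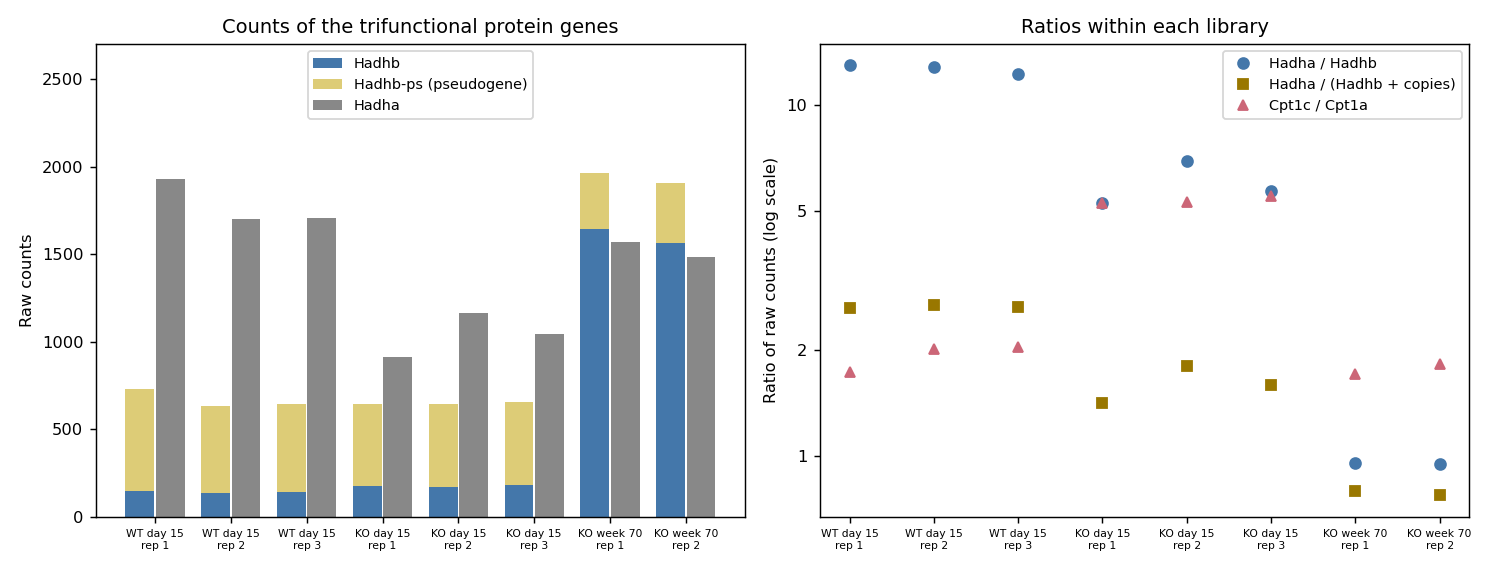
Left, raw counts (vertical axis) in each library of Hadhb and Hadhb-ps, stacked, and of Hadha beside them. Right, ratios of raw counts within each library on a log axis: Hadha to Hadhb falls from between 12.3 and 13.0 in WT to 0.954 and 0.951 at week 70, and Cpt1c to Cpt1a is between 5.28 and 5.51 in KO day 15 alone.

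Acaa2 (ENSMUSG00000036880, chromosome 18, 74779197 to 74806208), the mitochondrial thiolase that releases acetyl-CoA, stood at 19.7, 14.4 and 16.4 CPM in WT, 14.1, 13.5 and 10.6 in KO fetal brain, and 33.4 and 31.9 at week 70. The genotypes were close, the lowest WT library lying just above the highest KO library. Its log2 fold change of -0.37 by genotype (SE 0.141, edgeR adjusted p 0.0427) lost its call in 6 of the 17 alternatives: upper-quartile scaling, removal of haemoglobin and mitochondrially encoded genes, and without WT replicate 1, WT replicate 3, KO replicate 2 or KO replicate 3. Without WT replicate 1, the library that stood apart, it was -0.26. By age it rose by 1.26 on the log2 scale (edgeR adjusted p 1.03e-05).

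Bdh1 (ENSMUSG00000046598, chromosome 16, 31422280 to 31458901) encodes the mitochondrial dehydrogenase that interconverts the ketone bodies beta-hydroxybutyrate and acetoacetate. It stood at 91.6, 94.97 and 98.2 CPM in WT, 53.5, 53.2 and 44.3 in KO fetal brain, and 55.3 and 55.1 at week 70. The WT libraries were higher than all 5 KO libraries of either age. The log2 fold change by genotype was -0.88 (SE 0.0758, edgeR adjusted p 3.09e-06), and -0.57 with the length and GC offset. By age it was 0.03 (SE 0.102, edgeR adjusted p 0.766), and with the offset -0.34 (edgeR adjusted p 0.00497), so its direction by age is not stable. Per exon base it was the most abundant of the 10 in WT, at 24.4 CPM per kilobase, and per base of the longest transcript too, at 30.03. The order after it depended on that length: Cpt1c (11.3) came next per exon base and Hadha (21.7) per transcript base. At week 70 Acadl was highest on both scales, at 32.55 and 34.1, and Bdh1 stood at 14.2 and 17.45.

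The remaining pair of groups, KO week 70 against WT day 15, differs in both genotype and age. Here 9 of the 10 were called, 8 higher at week 70 and Bdh1 lower, beside 78.6% of all tested genes (86.4% without overlap of CPM), and the fit shares its libraries with both others. The log2 fold change was 3.96 for Hadhb (1.99 with its copies), 1.79 for Acadl, 0.95 for Acadm, 0.94 for Acaa2, 0.69 for Cpt2, 0.62 for Cpt1a, 0.50 for Cpt1c and 0.23 for Hadha. Bdh1 was at -0.80 (edgeR adjusted p 2.49e-05). Acadvl, at 0.28, was not called (edgeR adjusted p 0.0673). It was called with RLE scaling and with all 8 libraries in one fit (0.30 in both), and without week 70 replicate 1 (0.43). The call of Hadha was lost in 5 of 16 alternatives, the length and GC offset included (0.13). With that offset 7 of the 10 were called higher and Bdh1 lower, where 76.7% of all genes were called (38.8% higher and 37.9% lower). Genotype and age cannot be told apart in these values.

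Other genes of the pathway, 67 on 9 lists, were tested in the same fits. Of the 65 tested, 17 were called higher in KO, 22 lower and 26 not, beside 30.1% and 32.5% of all genes, with a median log2 fold change of -0.06. With the length and GC offset 20 were higher, 20 lower and 25 not called, beside 26.0% and 25.1% of all genes, with a median of -0.01. Of the 66 tested by age, 46 were called higher at week 70, 9 lower and 11 not, beside 37.6% and 44.4% of all genes, with a median of 1.01 against -0.19 for all genes. With the offset 48 were higher, 12 lower and 6 not called, beside 39.6% and 39.2% of all genes. The lists were written with earlier results of these data known. The genes named below had the smallest p of their list in a direction.

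Genes of fatty acid uptake and activation split at day 15, with 4 of 11 higher and 4 lower, or 6 higher and 3 lower with the offset. Fabp7, the fatty acid-binding protein of radial glia, averaged 282 ± 30.7 CPM over WT and 786 ± 41.0 CPM over KO libraries (SD, 3 libraries per group), a log2 fold change of 1.52 (edgeR adjusted p 1.67e-07), or 0.51 with the length and GC offset. The 6 progenitor markers, which do not include it, were all called lower, and with the offset 4 of them were. Slc27a4, a fatty acid transport protein with acyl-CoA synthetase activity, was lower, at -1.16 on the log2 scale, or -0.45 with the offset. By age 8 rose and 3 fell: Acsl3, an acyl-CoA synthetase, rose by 2.11 and Fabp7 fell by 5.16, while with the offset it fell by 3.23.

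Among 5 other carnitine genes 3 were higher at day 15, with Crot, the peroxisomal octanoyltransferase, at 0.47 on the log2 scale. With the offset 2 of the 5 were, and Crot, at 0.19, was not called. Crat, for carnitine acetyltransferase, was lower at -0.29, but the sign reversed to 0.30 with the offset. By age 2 of the 5 were called higher and 3 lower, with or without the offset, and the median log2 fold change was -0.54. Crot rose by 0.94 (1.42 with the offset), and Cpt1b, the muscle CPT1, fell from 26, 32 and 21 counts to 0 and 3. All 3 genes that set malonyl-CoA, the inhibitor of CPT1, were called lower at day 15 and higher at week 70. Acaca, acetyl-CoA carboxylase 1, was at -0.67 by genotype, and Mlycd, which removes malonyl-CoA, at 2.45 by age (1.55 with the offset). With the length and GC offset none of the 3 was called at day 15, and all 3 were by age.

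Of the 12 other mitochondrial beta-oxidation genes, 4 were higher and 3 lower at day 15, and 9 were higher and 1 lower at week 70. The acyl-CoA thioesterase genes Acot13 and Acot2 had the smallest p in each direction at day 15, with log2 fold changes of 1.10 (0.58 with the offset) and -1.62. By age Acot13 rose by 2.39 (3.94 with the offset), and Eci2, an enoyl-CoA isomerase, fell by 0.70. Of the branched-chain dehydrogenases, Acadsb was higher at day 15 by 0.40 and the other 2 were not called, and by age Ivd rose by 0.83 (0.47 with the offset). The electron transfer flavoprotein carries electrons from these dehydrogenases to the respiratory chain. Its subunit gene Etfa was called higher at day 15, at 0.26, which reversed to -0.34 with the offset, and it rose by 0.76 with age (1.68 with the offset).

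Among 8 other ketone body genes, 2 were higher and 3 lower at day 15. Aacs, which activates acetoacetate for lipid synthesis, went from 65.0 ± 5.12 to 29.5 ± 2.45 CPM (SD, n = 3 each), a log2 fold change of -1.10 (edgeR adjusted p 9.9e-07), or -0.52 with the offset. The monocarboxylate transporter gene Slc16a7 was higher, at 0.64 (0.37 with the offset). By age 6 rose, first Slc16a1, the transporter through which ketone bodies enter brain, by 2.18, and Acat1, the acetoacetyl-CoA thiolase, fell by 0.28, a call that was lost with the offset (-0.03). Of 10 peroxisomal genes, 1 was called higher and 4 lower at day 15, and 7 were higher and 1 lower at week 70. Scp2, a peroxisomal thiolase and lipid carrier, was higher at day 15, at 0.42, and not called with the offset. Acaa1b, another peroxisomal thiolase, fell with age by 1.49, from 40, 42 and 37 counts to 16 and 10.

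Of the 12 listed regulators 10 were tested at day 15, of which 0 were called higher and 4 lower, and by age 8 of 11 were higher and 0 lower. With the offset 1 was called higher and 5 lower at day 15, and 10 higher and 0 lower by age. Rxra, the receptor partner of the PPARs, went from 31.5 ± 2.54 to 9.95 ± 0.867 CPM (SD, n = 3 each), a log2 fold change of -1.62 (edgeR adjusted p 2.89e-07), or -0.79 with the offset. By age it rose by 2.51 (1.55 with the offset). Fgf21 was not tested in either comparison and Pparg not at day 15, because their counts were too low.

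**Figure D4:**
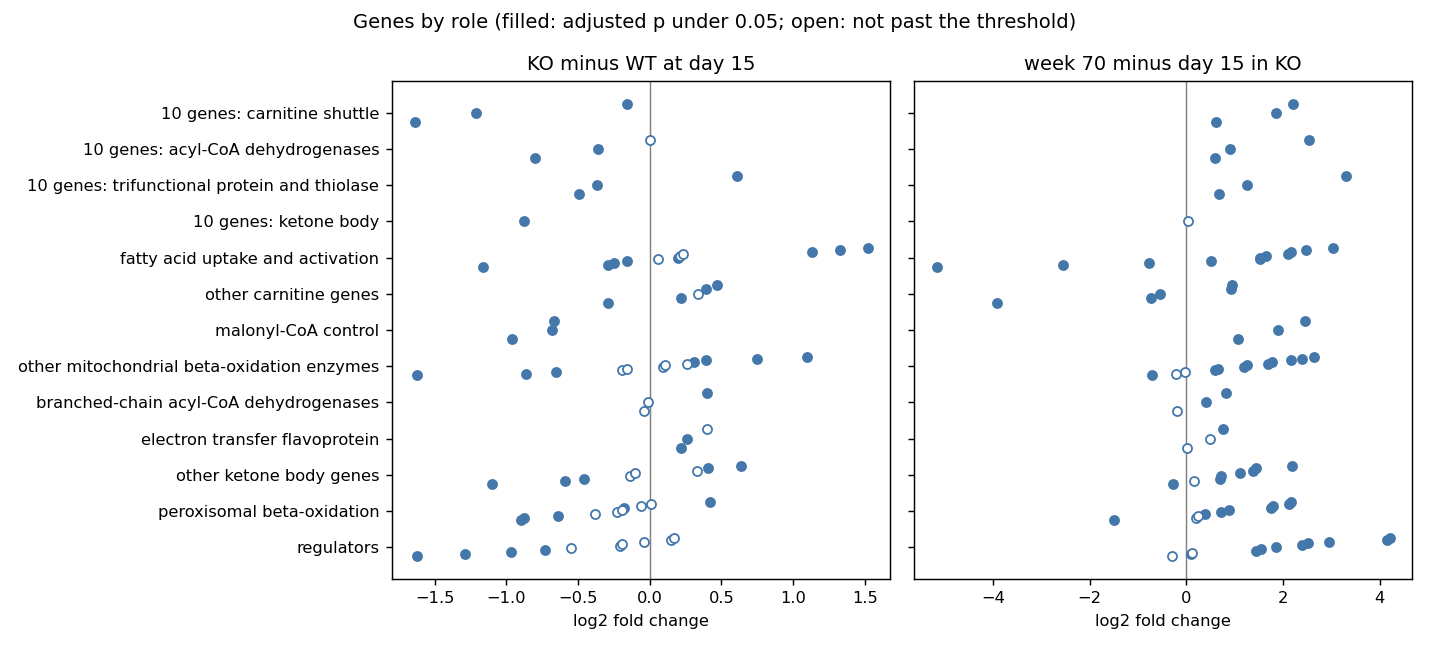
Fitted log2 fold changes (horizontal axis) of the 10 genes and of the tested genes among 67 others of the pathway, grouped by role (rows), between KO and WT at day 15 (left) and between week 70 and day 15 in KO (right); filled points passed an adjusted p of 0.05 in edgeR and open points did not. At day 15 the points of most rows lie on both sides of 0, and by age most lie above it.

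The genes whose pattern was most like that of 3 contrasting members were drawn from 12818 named genes with a mean of at least 50 counts. Genes whose symbol marks a predicted gene, a clone or a pseudogene were left out. Likeness was the root mean square difference of log2 CPM, each gene centred over the 8 libraries. Nearest to Cpt1a were Grn, Il6st and Fto (0.079, 0.095 and 0.099), of which Grn averaged 42.5 ± 7.86 CPM over WT libraries, 13.1 ± 0.596 over KO fetal libraries (SD, 3 per group) and 63.4 ± 0.667 at week 70 (SD, n = 2). Nearest to Cpt1c were Dixdc1, Hars and Per2 (0.03, 0.044 and 0.051), and nearest to Bdh1 were Hsdl1, Lbh and Ppm1g (0.04, 0.044 and 0.067).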

How the data were processed

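RNA-seq of polyadenylated RNA was deposited as 1 table that gives the raw count of each Ensembl gene in each library, per the file headers. The submitters' processing notes name FastQC, cutadapt, Trimmomatic, HISAT2, featureCounts and edgeR and the builds GRCm38 and GRCm39, with no role or order. The annotation, the strand setting and the handling of multi-matching reads are not given in the sources used here. Samples were grouped by their titles.

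Every comparison was fitted on all genes of the table with edgeR 4.0.16 in R 4.3.3, using only the libraries of the groups compared: filterByExpr, TMM scaling, the two-sided quasi-likelihood F-test, and Benjamini-Hochberg adjustment over all tested genes with a threshold of 0.05. Standard errors are those implied by the F statistic. Normalised CPM used TMM over all 8 libraries, and CPM per kilobase the union of exons in GENCODE M 21 (GRCm38), which matched 97.3% of the table's identifiers. The length and GC offset smoothed, within every library, the distance of log2 CPM from the mean of the gene on the length and GC content of the longest transcript (mgcv 1.9.3). Copies of the 10 genes were found by aligning processed pseudogenes to coding transcripts with minimap2 2.31, with at least 50% aligned at 85% identity. DESeq2 1.42.0 was an alternative. The fits were also run on simulated data with few changed genes and no length or GC trend. That run cannot show how the fits behave where most genes change.

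The 10 genes, the pathway and marker lists, and the length and GC offset were chosen with earlier results of these data known. Named pathway genes are those with the smallest p in each list, direction and comparison; 1 of them is not reported here. The lowest count of any of the 10 genes in a library was 49 (Cpt2), and reads carry no molecular identifiers, so counting error covers only part of the spread.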

Additional observations from a re-analysis of the deposited data

How the results depend on the processing

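Each result was recomputed with DESeq2, with upper-quartile or RLE scaling, without a filter on low counts or requiring a mean of 10 counts, with all 8 libraries in one fit, the replicate block, the length and GC offset with and without that block, removal of haemoglobin and mitochondrially encoded genes, each library left out and, chosen after seeing the data, copies added to their parent genes. Adding copies alters the counts of Hadhb and Acadm alone, so it is no test of the other genes, although the tallies below include it. At day 15 the number of the 10 genes called, 9, was 6 with upper-quartile scaling and with the offset, 7 without haemoglobin and mitochondrially encoded genes, 8 with DESeq2, and 7 to 9 with 1 library left out. By age it was 8 with the offset and otherwise 9, and for week 70 KO against WT day 15 it ranged from 6 to 10. Among all tested genes at day 15, 12542 of 19147 were called with upper-quartile scaling and 51.1% with the offset. Without haemoglobin and mitochondrially encoded genes 11987 of 19114 were called, and with DESeq2 10934 of 19147. Leaving 1 library out gave 10997 to 11365 calls among 19543 to 20141 genes. By age 81.9% of all genes were called, or 78.7% with the offset, and in the remaining comparison 78.6% and 76.7%. Deviations from the group means gave r = -0.16, -0.19 and -0.176 for same-numbered WT and KO fetal libraries, and 0.071 to 0.099 for differently numbered ones. Centring within each small group ties these values together, so they cannot decide whether the numbers pair the samples. With the replicate block 8 of the 10 genes were called at day 15, 9 by age and 8 in the remaining comparison. Of all tested genes, 11184 of 19147, 14876 of 20000 and 13243 of 19465 were called in these fits. Over the 10 genes, 443 of 490 recomputed fold changes kept direction and side of the threshold, 28 lost the call, 3 gained it and 16 changed sign; of 479 for other named genes, 461 kept both, 14 lost the call and 4 changed sign.

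Signs changed at day 15 for Cpt1c with upper-quartile scaling (0.01) and with the offset, with or without the block (0.37), for Crat with the offset, with or without the block (0.30), and for Etfa likewise (-0.34). Acadm, near 0, was at 0.17 with upper-quartile scaling, 0.009 with the mean filter and 0.02 without haemoglobin and mitochondrially encoded genes, and at 0.02, 0.008 and 0.002 without KO replicate 2, WT replicate 1 and WT replicate 3. By age Cpt1c was at -0.08 with the offset and -0.06 with offset and block. Bdh1 was at -0.22 with upper-quartile scaling, -0.05 with the block, -0.34 with the offset, -0.40 with both, and between -0.05 (without KO day 15 replicate 3) and 0.08 (without KO day 15 replicate 1 or 2) with 1 library left out. The cause was not tested. Where 1 week 70 library is left out, the other is taken to vary like the fetal libraries.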
